A study of Saccharomyces cerevisiae with 16 samples.

Results

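The chromosomal profile of the Rrm3 helicase was set against the profile of DNA polymerase epsilon in cells labelled as lacking that helicase, on 11 of the 16 arrays of a study of replication fork pausing in budding yeast. Rrm3 was profiled on 5 arrays, from haploid W303a cells that expressed Rrm3-13MYC and so kept the helicase in tagged form. The polymerase was profiled on 6 arrays, from haploid W303a cells that expressed DNA Pol2-13MYC and were labelled rrm3 delete. The cells of these 11 arrays grew asynchronously in YEPD rich medium to an optical density of 0.25. Each two-colour array compared the DNA that a MYC antibody brought down (the IP) with genomic DNA of fixed cells (the input). Its spots were PCR products, made from open reading frames (ORFs) and from the stretches between ORFs. The arrays were taken by their titles, 031, 041, 088, 184 and 185 for Rrm3 and 040, 137, 182, 183, 239 and 240 for Pol2. The tagged protein and the genotype differed together between these groups, so their parts cannot be told apart. Another 4 arrays, 039, 086, 136 and 230, profiled Pol2 in cells titled without the deletion and are called wild type below. They entered only as readings set beside the 11 arrays and in an alternative fit. No optical density is given for array 086.

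DNA polymerase epsilon, whose catalytic subunit is Pol2, copies the leading strand and travels with the fork. Rrm3 is a helicase of the Pif1 family that also moves with forks and helps them past proteins bound tightly to DNA, such as those at tRNA genes, the rDNA, centromeres and telomeres. Where a fork slows, the polymerase stays longer and its IP is expected to gather more DNA. The question was therefore whether the sites that held the helicase were the sites where the polymerase gathered without it.

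Values are log2 ratios of IP over input, centred so that each array's median is 0, and a feature is an ORF, a region between ORFs or another named spot. A region carries the name of the ORF it adjoins with an I in front. A linear model with a mean per group and a term for the dye gave each feature a mean in either IP and the difference of Rrm3 minus Pol2, each with its standard error (SE). A feature is called higher or lower where limma's Benjamini-Hochberg adjusted p, over the 12781 features tested, was under 0.05. The labels call some arrays dye swaps and the series text calls those technical replicates. No source says which arrays share an extract, so the p-values rest on differences among arrays that may in part be technical.

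The arrays differed in quality. The deposited table held a value for 6282 features on array 182, where 54% of spots carried a quality flag, and for 11056 to 12906 on the others. Array 031 had a median absolute deviation of 1.06 on the log2 scale, against 0.389 to 0.672 on the other 10 arrays. Arrays 031 and 041, both of Rrm3, had a layout of their own. Pairs of arrays correlated across features with a median r of 0.22 within the Rrm3 IP (0.04 to 0.45), 0.51 within the Pol2 IP (0.05 to 0.73) and 0.21 between the groups (-0.13 to 0.67). Arrays 182 to 185, 2 of each group and all with the IP in Cy3, carry consecutive numbers and correlated between the groups at 0.40 to 0.67. No label says whether they share a day or an extract.

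The spot of RRM3 itself checked the deletion label. In the input channel it stood at the 29.3rd to 94.6th percentile of features on the 5 Rrm3 arrays. On the arrays labelled rrm3 delete it stood at the 1.28th (137), 2.06th (182), 0.904th (183) and 0.955th (240) percentile, but at the 49.6th on array 239, and array 040 had no usable spot. At this spot array 239 thus went against its label, and counts without it are given below. Its median over the tRNA genes was 0.82, and the arrays labelled rrm3 delete ranged from 0.81 to 0.98. The difference of Rrm3 minus Pol2 was -0.42 ± 0.39 (SE, adjusted p = 0.617 in limma) at RRM3 and 0.22 ± 0.25 (adjusted p = 0.693) at POL2.

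The profiles matched in part. The fitted means of the Rrm3 IP and the Pol2 IP correlated across the 12781 features with a Pearson r of 0.46 and a Spearman rho of 0.46, as a description of features that share arrays and neighbours. Among pairs of arrays from different groups the median r was 0.41 where the IP carried the same dye and 0.16 where it did not. Averaged by dye, the groups correlated at 0.32 with both IPs in Cy5, at 0.65 with both in Cy3, and at 0.17 and 0.13 across dyes. The dye thus moved with the likeness of the profiles, and its part in the overall match was not tested.

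The Rrm3 IP was called higher than its array median at 873 features (6.83% of those tested) and the Pol2 IP at 881 (6.89%). Both were called higher at 239 features (1.87%), which made up 27.4% of the Rrm3 list and 27.1% of the Pol2 list. Both were called lower at 250 features, 23.4% of the 1069 that Rrm3 called lower (8.36% of those tested) and 41.5% of the 603 that Pol2 called lower (4.72%). Of the 639 highest features in either IP, the top 5%, 133 were shared, or 20.8% of each list. Opposite calls were few. At 20 features the Pol2 IP was called higher and the Rrm3 IP lower, and at 1 feature the reverse held. All these calls came from a single fit with a shared variance per feature, so the lists of the IPs are not independent. What this added to their overlap was not tested.

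Where one protein gathered, the other tended to lie above its median. Across the 881 features where Pol2 was called higher, the median was 0.33 in the Rrm3 IP and 0.79 in the Pol2 IP, and the Rrm3 mean was above 0 at 79.6% of them, against 49.4% of all features. Across the 873 features where Rrm3 was called higher, the median was 0.74 in the Rrm3 IP and 0.34 in the Pol2 IP, and the Pol2 mean was above 0 at 89.3%, against 49.8% of all features.

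Tested directly, the difference was called at few features and mostly in 1 direction. Of 116 features called (0.908%), the Rrm3 IP was higher than the Pol2 IP at 10 (0.0782%) and lower at 106 (0.829%). At an unadjusted p under 0.05 in limma, 1202 of the 12781 features had a negative difference and 776 a positive one. Of the 106, 90 were called higher in the Pol2 IP against its array median and 36 were called lower in the Rrm3 IP, and the Rrm3 mean was below 0 at 84. At 100 of the 106 every Rrm3 array lay below every Pol2 array, which held for 414 of all features tested (3.24%). At all 10 features with the Rrm3 IP higher, every Rrm3 array lay above every Pol2 array, as at 241 of all features (1.89%). Of those 10, 9 were called lower in the Pol2 IP and 2 were called higher in the Rrm3 IP.

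These counts depended on single arrays and on scale. Without Rrm3 array 031, 75 features were higher and 244 lower. Without Pol2 array 040, 3 were higher and 39 lower, and without array 239, 46 were called in all, each of them among the 116. With every array scaled to the same spread, 152 were higher and 385 lower. Within a dye, with fewer arrays, 1 was higher and 3 lower for Cy5, and none was called for Cy3 in limma, with 494 at an unadjusted p under 0.05. The Cy3 fit needed a value on array 182, so it could test at most the 6282 features measured there. With arrays 182 to 185 as a block, chosen after seeing the data, 6 were higher and 69 lower, and 71 of these 75 were among the 116.

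**Figure D1:**
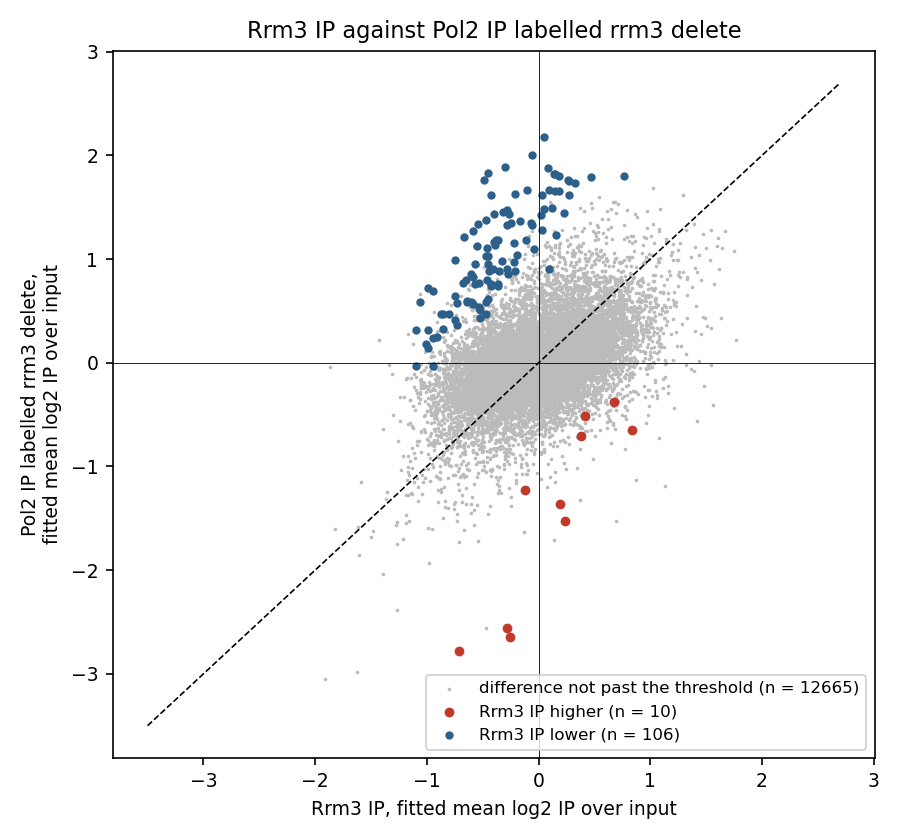
Fitted mean log2 IP over input of the Rrm3 IP (x axis) and of the Pol2 IP labelled rrm3 delete (y axis) for the 12781 features tested; the dashed line marks equal means. The 106 features with the Rrm3 IP lower lie above the line, most with a Pol2 mean above 0, and the 10 with the Rrm3 IP higher lie below it, 9 of them where the Pol2 IP was called lower.

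Ranked by the smaller of the group means, the first 10 features called higher in both IPs were a mix of named genes, ORFs without a gene name and a region. In order, they were YKL030W, IYOR083W, RPL3, YDR433W, RDN25-1, PDC1, HPF1, TDH2, ENO2 and TEF2. RPL3 encodes a protein of the large ribosomal subunit, TEF2 a translation elongation factor and HPF1 a cell wall mannoprotein. PDC1, TDH2 and ENO2 encode pyruvate decarboxylase, glyceraldehyde-3-phosphate dehydrogenase and enolase.

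RPL3 read 0.05, 1.85, 2.31, 1.99 and 1.51 on Rrm3 arrays 031, 041, 088, 184 and 185, and 1.53, 1.27, 0.96, 1.35 and 1.29 on Pol2 arrays 040, 137, 183, 239 and 240. The fitted means were 1.55 ± 0.26 and 1.28 ± 0.26 (SE), and the difference of 0.26 ± 0.36 did not pass the test (adjusted p = 0.755 in limma). PDC1 read 1.69, 1.94, 1.30 and 0.94 on the 4 Rrm3 arrays that measured it, and 0.75 to 1.56 on the 6 Pol2 arrays. Its groups overlapped, with a difference of 0.23 ± 0.21 (adjusted p = 0.617). TDH2 and ENO2 were both below 0 on array 031, at -0.88 and -0.57. On the other Rrm3 arrays they lay between 1.35 and 2.32 and between 1.29 and 2.09, against 0.79 to 1.42 and 0.89 to 1.94 on the Pol2 arrays.

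The 21 genes of glycolysis and fermentation as a group had a median of 0.88 in the Rrm3 IP and 0.77 in the Pol2 IP. Of these, 13 were called higher in the Rrm3 IP (61.9%, against 6.83% of all features) and 9 in the Pol2 IP (42.9%, against 6.89%), with 8 in both. The list's median on each Rrm3 array was -0.25 on array 031 and 0.82, 1.52, 1.22 and 0.93 on arrays 041, 088, 184 and 185. On the Pol2 arrays it lay between 0.48 and 0.75, and on the wild-type Pol2 arrays between 0.40 and 0.91. None of the 21 differed between the IPs in limma, 1 with an unadjusted p under 0.05. The median difference of 0.05 changed sign with the arrays used, at -0.15 without array 088 and 0.41 without array 031. Without array 031, 19 of these genes were called higher in the Rrm3 IP, as were 1286 of all features.

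Ribosomal protein genes had positive medians in both IPs. Over 128 genes the median was 0.54 in the Rrm3 IP and 0.18 in the Pol2 IP. The Rrm3 IP was called higher at 52 (40.6%, against 6.83% of all features) and the Pol2 IP at 12 (9.38%, against 6.89%), all 12 of them also in the Rrm3 IP. The list's median was -0.01 on array 031 and 0.45 to 0.93 on the other Rrm3 arrays, against 0.12 to 0.23 on the Pol2 arrays, so array 031 lay below the Pol2 range and the others above it. No single gene passed the test of the difference in limma. A positive difference at an unadjusted p under 0.05 was found at 33 of the 128, against 776 of all 12781 features. The median difference of 0.34 stayed between 0.23 and 0.58 under the alternatives. Without array 031, 98 were called higher in the Rrm3 IP and 12 passed the difference, and without array 184 those counts were 12 and 0. Calls over all features moved as well. Without array 031 the Rrm3 IP was called higher at 1286 and the difference passed in either direction at 319, and without array 184 at 113 and 74. RPS25A, a small-subunit protein gene, came close with 0.98 ± 0.22 (SE, adjusted p = 0.0613) and groups that did not overlap.

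Histone genes were called higher in the Rrm3 IP at 4 of 10 (40%, against 6.83% of all features) and in the Pol2 IP at none, which at 10 genes is near the 6.89% of all features. HTB1, which encodes histone H2B, had means of 1.05 ± 0.30 in the Rrm3 IP and -0.27 ± 0.30 in the Pol2 IP. Array 137 carried the low Pol2 mean, at -2.23, against -0.15 to 0.33 on the other Pol2 arrays and 0.42 to 1.58 on the Rrm3 arrays. Without array 137 the means were 1.01 and 0.14 and the difference was 0.87 ± 0.27 (SE, adjusted p = 0.29 in limma), against 1.32 ± 0.41 with it. HHF1, which encodes histone H4, had 0.98 ± 0.22 and -0.02 ± 0.22. Neither difference passed the test (adjusted p = 0.173 and 0.161 in limma), as for all 10 genes. A positive difference at an unadjusted p under 0.05 was found at 4 of the 10, against 776 of all 12781 features.

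**Figure D2:**
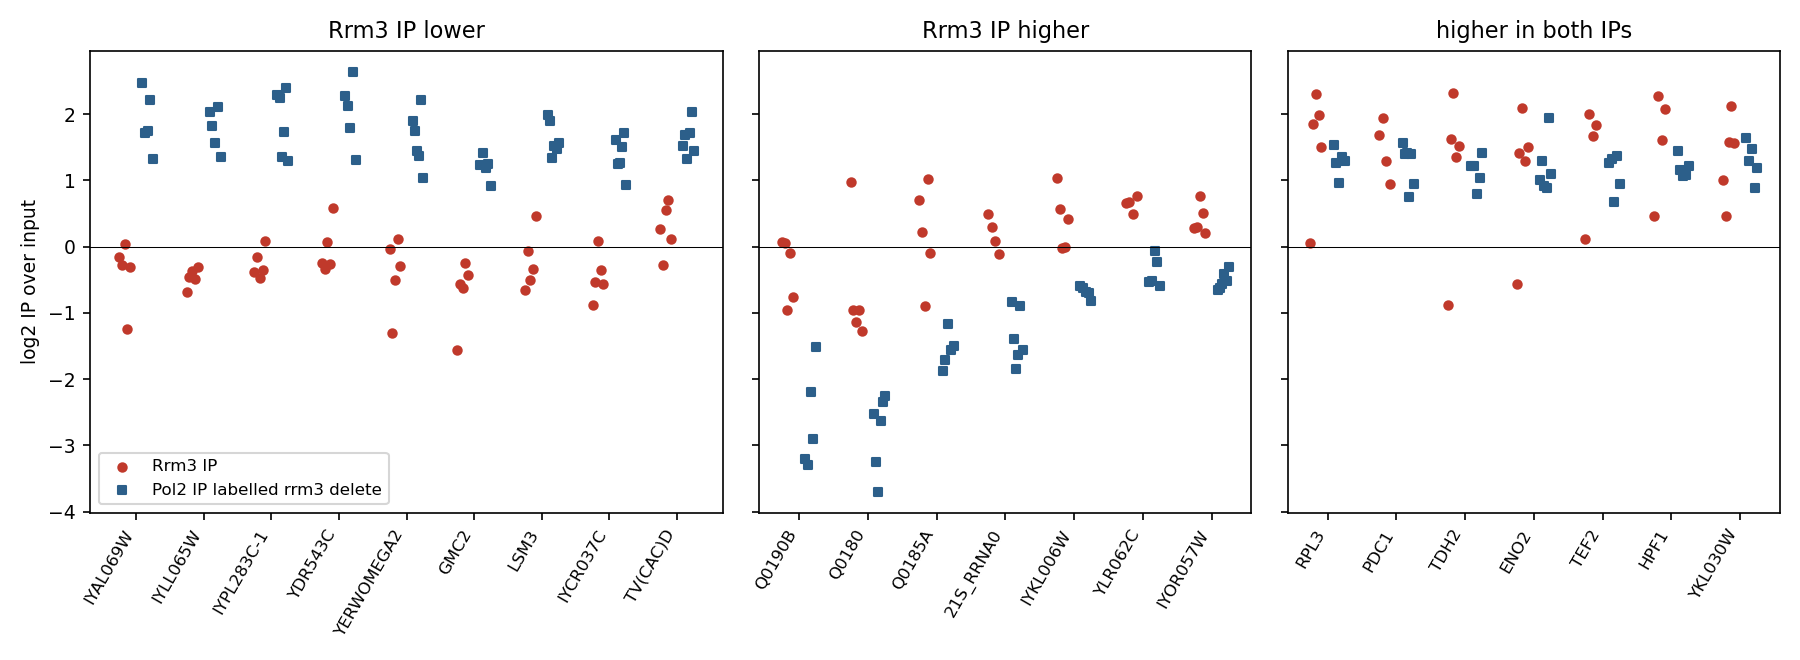
Log2 IP over input of single features on every array, with the 5 Rrm3 arrays (red circles) left of the 6 Pol2 arrays labelled rrm3 delete (blue squares); fewer points mean that an array had no value. The left panel holds features with the Rrm3 IP lower, the middle panel features with it higher, and the right panel genes higher in both, where the groups overlap and 1 Rrm3 array, 031, falls low for RPL3, TDH2, ENO2 and TEF2.

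Transfer RNA genes, transcribed by RNA polymerase III and bound by its factors, are known as sites where forks slow without Rrm3. Of 42 tRNA gene features, the Pol2 IP was called higher at 34 (81.0%, against 6.89% of all features). The Rrm3 IP was called higher at 9 (21.4%, against 6.83%), and all 9 were also called in the Pol2 IP. The median over the 42 was 0.31 in the Rrm3 IP and 0.86 in the Pol2 IP.

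The list's median was -0.30, 0.53, 0.55, 0.41 and 0.48 on Rrm3 arrays 031, 041, 088, 184 and 185. It was 0.85, 0.98, 0.89, 0.88, 0.82 and 0.81 on Pol2 arrays 040, 137, 182, 183, 239 and 240. Every Rrm3 array lay below every Pol2 array, and array 031 lay far below the other Rrm3 arrays. On the 4 wild-type Pol2 arrays the same median was between -0.11 and 0.03. It was lowest on array 136, whose dye label and deposited direction disagree.

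The difference was negative at 41 of the 42 tRNA genes, with a median of -0.60, against 6536 of the 12781 features and a median of -0.01. It passed the test at 1 (2.38%, against 0.829% of all features called lower), the valine tRNA gene TV(CAC)D. At an unadjusted p under 0.05, 22 of the 42 had a negative difference, against 1202 of the 12781 features. TV(CAC)D read 0.26, -0.27, 0.56, 0.71 and 0.11 on the Rrm3 arrays and 1.33 to 2.04 on the Pol2 arrays, without overlap. Its difference was -1.35 ± 0.22 (SE, adjusted p = 0.0106 in limma). The median difference lay between -0.80 and -0.42 under the alternatives.

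The number of tRNA genes called in the Rrm3 IP turned on single arrays, at 25 without array 031 and 1 without array 184. Over all features, those counts were 1286 and 113. With arrays scaled to the same spread, 16 tRNA genes were lower in the Rrm3 IP than in the Pol2 IP. The difference was then called in either direction at 537 of all features. The genes called in both IPs included TR(UCU)M2, at 0.61 in the Rrm3 IP and 0.99 in the Pol2 IP, and TV(UAC)B, at 0.67 and 1.55. TS(UGA)P and TW(CCA)P stood almost level, at 0.69 and 0.72 and at 0.65 and 0.67. These 4 were chosen after their values were seen.

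Regions named for a tRNA gene followed the same order at smaller size. Over 247 such regions the median was 0.24 in the Rrm3 IP and 0.46 in the Pol2 IP, and 35 (14.2%, against 6.83% of all features) and 94 (38.1%, against 6.89%) were called higher, 22 in both. The difference passed the test at 2 (0.81%), a share near the 0.829% of all features. ITD(GUC)B had a difference of -1.52 ± 0.30 (adjusted p = 0.0341 in limma) and ITP(UGG)L-0 one of -1.50 ± 0.26 (adjusted p = 0.0148), and in either no Rrm3 array reached the Pol2 arrays.

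Features where the Rrm3 IP fell below the Pol2 IP gathered at chromosome ends. Numbering locus tags inward from the end of each chromosome arm, places 1 to 5 held 323 tested features, and the Rrm3 IP was lower at 32 (9.91%, against 0.829% of all features). At places 6 to 10 it was lower at 12 of 367, at places 11 to 20 at 8 of 632, at places 21 to 40 at 10 of 1239, and farther in at 37 of 9171. The outermost 10 places thus held 44 of the 106 (41.5%), from 24 of the 32 arms, and 5.4% of all features tested.

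The proteins differed at the ends in both directions from their medians. At places 1 to 5 the median was -0.19 in the Rrm3 IP and 0.24 in the Pol2 IP. Of the 323, the Rrm3 IP was called higher at 11 (3.41%, against 6.83% of all features) and lower at 36 (11.1%, against 8.36%). The Pol2 IP was called higher at 72 (22.3%, against 6.89%) and lower at 13 (4.02%, against 4.72%), with 2 higher in both. At places 11 to 20 the medians were -0.05 and 0.02. By array, the median of places 1 to 5 was 0.39 on array 031 and -0.22, -0.16, -0.53 and -0.08 on Rrm3 arrays 041, 088, 184 and 185. It was 0.43, 0.37, 0.08, 0.22, 0.34 and 0.04 on Pol2 arrays 040, 137, 182, 183, 239 and 240, so only array 031 overlapped them. On the wild-type Pol2 arrays it lay between -0.31 and 0.10.

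**Figure D3:**
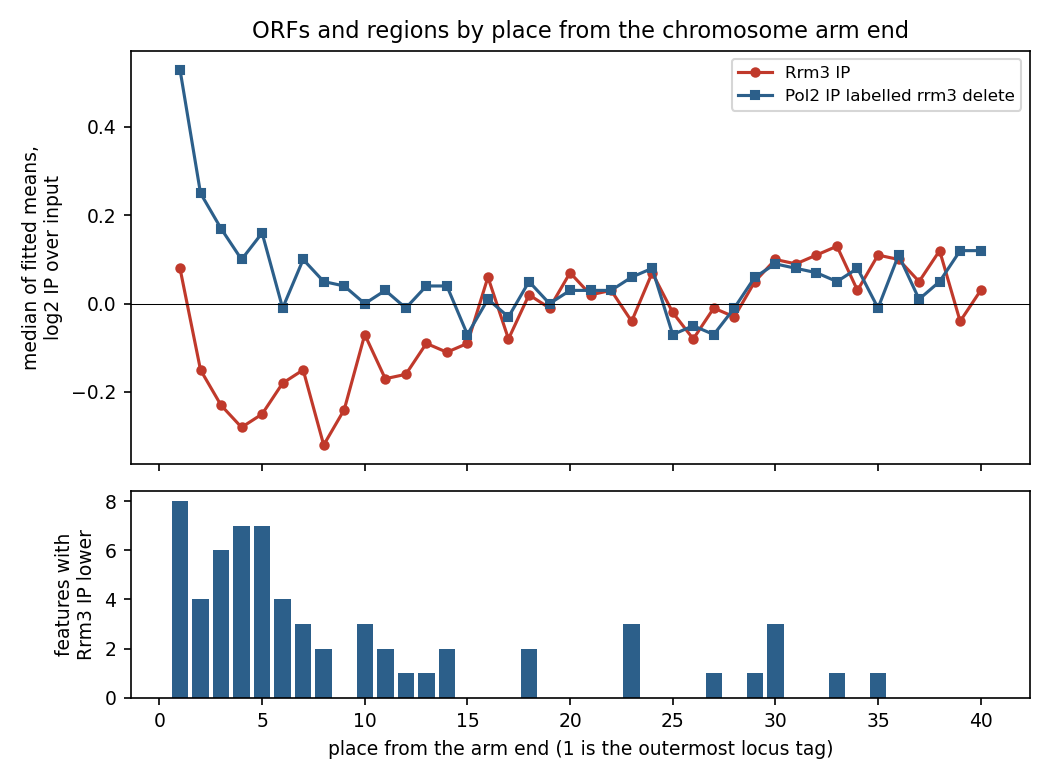
Upper panel, median over features of the fitted mean log2 IP over input by place from the chromosome arm end (1 is the outermost locus tag) in the Rrm3 IP (red) and the Pol2 IP labelled rrm3 delete (blue). Lower panel, the number of features at each place with the Rrm3 IP lower; at place 1 the medians were 0.08 and 0.53, and from about place 15 the lines run together.

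The 5 most negative differences lay within the outermost 7 places. The region IYAL069W, at the outermost place of its arm, read -0.15, -0.28, 0.04, -1.25 and -0.30 on the Rrm3 arrays. On the 5 Pol2 arrays that measured it, it read 2.47, 1.71, 1.75, 2.22 and 1.33. The difference was -2.28 ± 0.24 (SE, adjusted p = 0.00164 in limma), or 4.87-fold. IYPL283C-1, also outermost, read -0.48 to 0.08 on the Rrm3 arrays and 1.29 to 2.39 on the Pol2 arrays, a difference of -2.18 ± 0.23 (adjusted p = 0.0013).

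IYLL065W, at place 3, read -0.69 to -0.30 against 1.36 to 2.11, with a difference of -2.24 ± 0.20 (adjusted p = 0.000935). YDR543C, an ORF at place 3, differed by -2.07 ± 0.28, and IYNR076W, at place 2, by -1.83 ± 0.25 (both adjusted p = 0.00435). YERWOMEGA2, a long terminal repeat of the Ty5 type, differed by -2.04 ± 0.28 (adjusted p = 0.00435). At these 6 features the Rrm3 mean was below 0 and the groups did not overlap. IYLR461W-0, at place 7, was measured on 4 Pol2 arrays and named after its values were seen. It differed by -2.12 ± 0.22 (adjusted p = 0.00233), with a Rrm3 mean of 0.05 and a Pol2 mean of 2.18.

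The count at the ends also moved with single arrays. It was 52 of 319 without array 031, 17 of 323 without array 040, 21 of 321 without array 239 and 61 of 323 with arrays scaled to the same spread. Over all features, 244 were lower without array 031 and 39 without array 040. Called in either direction were 46 without array 239 and 537 with equal spread. End sequences occur in several near-identical copies, so a spot there may hybridise with DNA from several arms. IYAL069W stood between the 95.0th and 99.9th percentile of features in the input channel.

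Telomere-named features had a median difference of -0.40 and the YRF1 genes one of -0.49, against -0.43 over places 1 to 5. Of 8 telomere features, the Rrm3 IP was called higher at 1 (12.5%, against 6.83% of all features) and the Pol2 IP at 5 (62.5%, against 6.89%). TEL15R-1 passed the test at -1.50 ± 0.29 (adjusted p = 0.0384 in limma), although its groups overlapped, with 0.89 on array 031 and 0.88 on array 240. TEL3R was called higher in both, at 0.64 and 0.84.

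The 7 YRF1 genes, which encode helicase-like proteins of the Y' repeats, had a median of 0.22 in the Rrm3 IP and 0.62 in the Pol2 IP, and the Pol2 IP was called higher at 6 (85.7%, against 6.89% of all features). All 7 differences were negative, from -0.62 to -0.26, but none passed the test in limma. A negative difference at an unadjusted p under 0.05 was found at 3 of the 7, against 1202 of all 12781 features. Their median on the Rrm3 arrays, -0.44 to 0.76, overlapped that on the Pol2 arrays, 0.14 to 1.17. On the wild-type Pol2 arrays it was 0.05 to 0.79, which also overlapped the Pol2 arrays labelled rrm3 delete. Neither the 12 COS genes nor the 23 PAU genes held a feature past the test. Negative differences at an unadjusted p under 0.05 numbered 6 and 5, against the same 1202 of all 12781 features. Their median differences were -0.46 and -0.47. On Rrm3 array 031 the COS and PAU medians were 0.35 and 1.15, above every Pol2 array (-0.23 to 0.33 and 0.06 to 0.50). The other Rrm3 arrays gave -0.68 to -0.23 and -0.82 to -0.23.

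A list by gene order took the 10 outermost locus tags of each arm in the R64 gene table, and 296 of these ORFs were tested. ORFs of the array with no match there, such as YDR543C, were left out, unlike in the places above. Of the 296, 10 were lower in the Rrm3 IP (3.38%, against 0.829% of all features) and none was higher (against 0.0782%). They included REE1, which is named for regulation of enolase, at -1.62 ± 0.27, and YER188W, at -1.46 ± 0.20 (adjusted p = 0.0131 and 0.00507 in limma). HSP33 and HSP32, paralogs of the chaperone and deglycase gene HSP31, differed by -1.57 ± 0.24 and -1.55 ± 0.27. Chosen after its values were seen, their relative SNO4 was also lower, at -1.31 ± 0.24, while HSP31 had a difference of -0.60 ± 0.27 (adjusted p = 0.317).

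The THI5 family, whose products make the pyrimidine precursor of thiamine, was also chosen after its values were seen. THI5, THI11, THI12 and THI13 were all lower in the Rrm3 IP, by differences of -1.16 ± 0.23, -1.32 ± 0.19, -1.19 ± 0.23 and -1.27 ± 0.18 (adjusted p = 0.00435 to 0.0349 in limma). Here the Rrm3 IP was itself called lower at all 4, with means of -0.95 to -0.81, and the Pol2 means were 0.24 to 0.47. The genes are near-identical, so their spots cannot be read apart.

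Of the 106 features with the Rrm3 IP lower, 62 were not among the outermost 10 places. Places 11 to 20, 21 to 40 and farther in held 8, 10 and 37 of them. The rest carried no place, among them TEL15R-1, YERWOMEGA2 and TV(CAC)D. Across all 62, the Pol2 IP was called higher at 50 and the Rrm3 IP lower at 25. The medians of the 62 were -0.47 in the Rrm3 IP and 0.84 in the Pol2 IP. Features next to each other fell into 4 runs, the longest around CAR2, the ornithine transaminase gene, and around PHO87, a phosphate transporter gene. Both neighbourhoods were chosen after their values were seen.

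At CAR2, the Pol2 means of 5 successive features were 1.80 (CAR2), 1.47 (IYLR438W), 1.63 (LSM3), 1.67 (IYLR438C-A) and 1.49 (MRPL4). The wild-type Pol2 arrays that measured them read, in the same order, 1.24 to 1.41, 0.45 to 0.77, -0.04 to 0.79, 0.29 to 0.48 and 0.14 to 0.76. The Rrm3 means of the same features were 0.77, 0.79, -0.21, -0.11 and 0.12, so of these 5 the helicase was called higher at CAR2 and IYLR438W only. LSM3, which encodes a protein of RNA processing complexes, read -0.66, -0.06, -0.51, -0.33 and 0.47 on the Rrm3 arrays and 1.34 to 1.99 on the Pol2 arrays, a difference of -1.85 ± 0.24 (SE, adjusted p = 0.00415 in limma). The difference was -1.03 ± 0.22 at CAR2 (adjusted p = 0.0477), -1.36 ± 0.23 at MRPL4, a mitochondrial ribosomal protein gene, and -0.68 ± 0.23 at IYLR438W, which missed the threshold (adjusted p = 0.201). Outside the run, DIF1 and SEC39 both differed by -0.12.

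At PHO87, RBK1, the ribokinase gene, differed by -1.07 ± 0.23, PHO87 by -1.43 ± 0.20 and IYCR037C by -1.84 ± 0.22 (adjusted p = 0.0477, 0.00435 and 0.00233 in limma). IYCR037C read -0.88, -0.54, 0.09, -0.35 and -0.57 on the Rrm3 arrays and 0.93 to 1.72 on the Pol2 arrays. RRP43 to the left differed by 0.48 ± 0.20 and BUD5 to the right by -0.95 ± 0.33, and neither passed the test. GMC2, a meiotic gene, differed by -1.88 ± 0.25 (adjusted p = 0.00435) with the region IYLR445W beside it at -1.65 ± 0.24, and IYDR498C by -1.86 ± 0.28 (adjusted p = 0.00612).

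**Figure D4:**
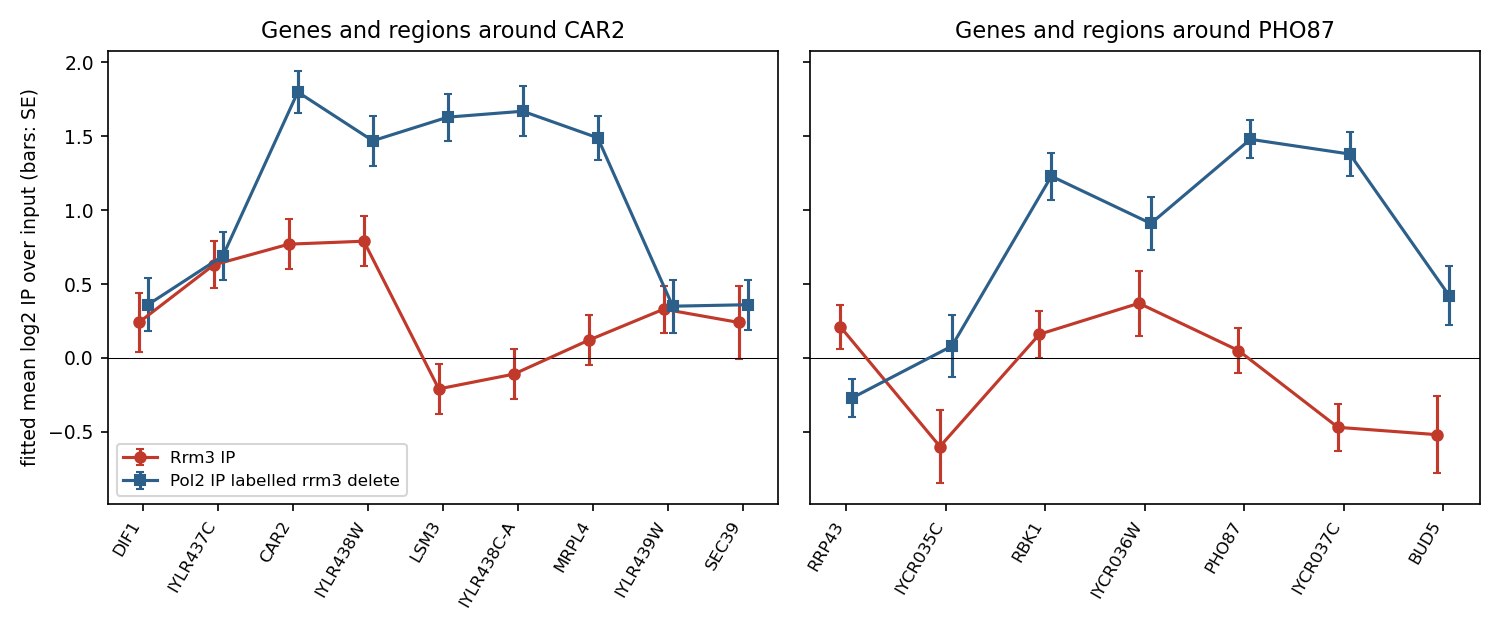
Fitted mean log2 IP over input with its SE of successive genes and regions around CAR2 (left) and PHO87 (right) in the Rrm3 IP (red) and the Pol2 IP labelled rrm3 delete (blue); each region is placed after the gene it is named for. The Pol2 IP forms a block of 1.47 to 1.80 from CAR2 to MRPL4, while the Rrm3 IP stands at 0.77 and 0.79 on its left side and near 0 on the rest.

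On the other side, 5 of the 10 features with the Rrm3 IP higher were of mitochondrial DNA, which is copied by a polymerase of its own. They were 5 of 77 such features tested (6.49%, against 0.0782% of all features). In each the Pol2 IP was called lower, and the Rrm3 means lay between -0.71 and 0.24. Q0190B read 0.07, 0.06, -0.96, -0.09 and -0.76 on the Rrm3 arrays and -3.20, -3.29, -2.19, -2.90 and -1.51 on Pol2 arrays 040, 137, 183, 239 and 240, without overlap. The difference was 2.28 ± 0.33 (SE, adjusted p = 0.00612 in limma).

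Q0180 had a difference of 2.07 ± 0.39, although both IPs were mostly below 0, at -0.71 ± 0.29 in the Rrm3 IP and -2.78 ± 0.26 in the Pol2 IP. Q0185A differed by 1.76 ± 0.31, the large ribosomal RNA spot 21S_RRNA0 by 1.55 ± 0.20 and Q0185H by 1.10 ± 0.24. Across the 77 features the median was 0.66 in the Rrm3 IP and 0.30 in the Pol2 IP. The Rrm3 IP was called higher at 40 (51.9%, against 6.83% of all features) and the Pol2 IP at 11 (14.3%, against 6.89%). The Rrm3 IP was called lower at 3 (3.9%, against 8.36%) and the Pol2 IP at 11 (14.3%, against 4.72%). Those 3, INTQ0185A, Q0185D and Q0190A, were lower in both, at -1.91, -1.27 and -1.63 in the Rrm3 IP and -3.05, -2.39 and -2.98 in the Pol2 IP.

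The 5 mitochondrial features with the Rrm3 IP higher were also low on the 4 wild-type Pol2 arrays, whose cells kept RRM3. Their medians there were -1.98 at Q0190B, -2.36 at Q0180, -1.53 at Q0185A, -1.27 at 21S_RRNA0 and -1.12 at Q0185H, and each of them was below 0 on all 4 arrays.

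The level of mitochondrial DNA moved with the dye and with single arrays. The list's median on the Pol2 arrays was 0.06, -0.55 and -0.14 with the IP in Cy5 (040, 137, 239) and 1.01, 0.32 and 0.75 with it in Cy3 (182, 183, 240). On the Rrm3 arrays it was 0.64, -0.04 and 0.20 in Cy5 (031, 041, 088) and 1.40 and 0.70 in Cy3 (184, 185). The Pol2 IP was called higher at 1 of 76 without array 182, and the Rrm3 IP at none of 77 without array 184. The number with the Rrm3 IP higher was 2 without array 040 or 239, 4 without array 184 and 15 with equal spread. Over all features, the Rrm3 IP was called higher than its array median at 113 without array 184. The difference was higher at 3 of all features without array 040. It was called in either direction at 46 without array 239, 74 without array 184 and 537 with equal spread. The part of the dye was not tested.

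The remaining features with the Rrm3 IP higher were single spots. IYFLCDELTA6, beside a delta element of a Ty transposon, had the largest difference of all, 2.40 ± 0.33 (SE, adjusted p = 0.0064 in limma). Its Pol2 mean was -2.65, from 4 arrays, and its Rrm3 mean was -0.25. On the 4 wild-type Pol2 arrays it read -1.66 to -0.01. The regions IYKL006W, IYOR057W and IYPR144C differed by 1.08 ± 0.23, 0.93 ± 0.18 and 1.48 ± 0.27, and the ORF YLR062C by 1.05 ± 0.21. YLR062C was called higher in the Rrm3 IP, at 0.68 ± 0.17, with 0.49 to 0.77 on the Rrm3 arrays and -0.59 to -0.07 on the Pol2 arrays.

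Other sites where Rrm3 is known to act gave no called difference. At 15 centromere features the median was 0.56 in the Rrm3 IP and 0.20 in the Pol2 IP. Calls of higher numbered 6 in the Rrm3 IP (40%, against 6.83% of all features) and none in the Pol2 IP (against 6.89%), and all 15 differences were positive, from 0.05 to 0.70. None passed the test in limma, and 1 had an unadjusted p under 0.05. The Rrm3 count was 2 of 14 without array 031, where 1286 of all features were called higher. At the 15 regions beside centromeres the medians were -0.17 in the Rrm3 IP and -0.14 in the Pol2 IP. Of these 15, 1 was called higher in the Rrm3 IP (6.67%, against 6.83% of all features) and none in the Pol2 IP (against 6.89%). At 15 features these counts are near the shares of all features. The Rrm3 IP was called lower at 2 (13.3%, against 8.36%) and the Pol2 IP at 3 of the 15 (against 4.72%). Whether these small counts differ from those shares was not tested.

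At 13 rDNA features, from the repeats where Rrm3 helps forks past a barrier, the medians were 0.89 and 0.41, and the Rrm3 IP was called higher at 6 (46.2%, against 6.83% of all features) and the Pol2 IP at 4 (30.8%, against 6.89%), 3 in both. RDN25-1 had 1.67 ± 0.35 in the Rrm3 IP and 1.27 ± 0.35 in the Pol2 IP. RDN5-1, the 5S gene, leaned to the Pol2 IP at 0.61 ± 0.27 and 1.46 ± 0.24, and RDN18-1 to the Rrm3 IP at 1.07 ± 0.26 and 0.47 ± 0.24 (adjusted p of the differences 0.28 and 0.426 in limma). By array the list's median ran from 0.38 to 2.48 on the Rrm3 arrays and from -0.23 to 1.13 on the Pol2 arrays.

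At 43 snRNA and snoRNA features the Rrm3 IP was called higher at 11 (25.6%, against 6.83% of all features) and the Pol2 IP at 7 (16.3%, against 6.89%), 6 in both. No difference passed the test in limma. A positive difference at an unadjusted p under 0.05 was found at 8 of the 43, against 776 of all 12781 features. Of 164 long terminal repeats and Ty elements, the Rrm3 IP was called lower at 29 (17.7%, against 8.36% of all features) and the Pol2 IP at 34 (20.7%, against 4.72%). The difference was called at YERWOMEGA2 alone (0.61%, near the 0.829% of all features). The mating type features, of which the silent copies lie near the ends of 1 chromosome, were below 0 in both, with medians of -0.72 and -0.57 over 6 features.

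**Figure D5:**
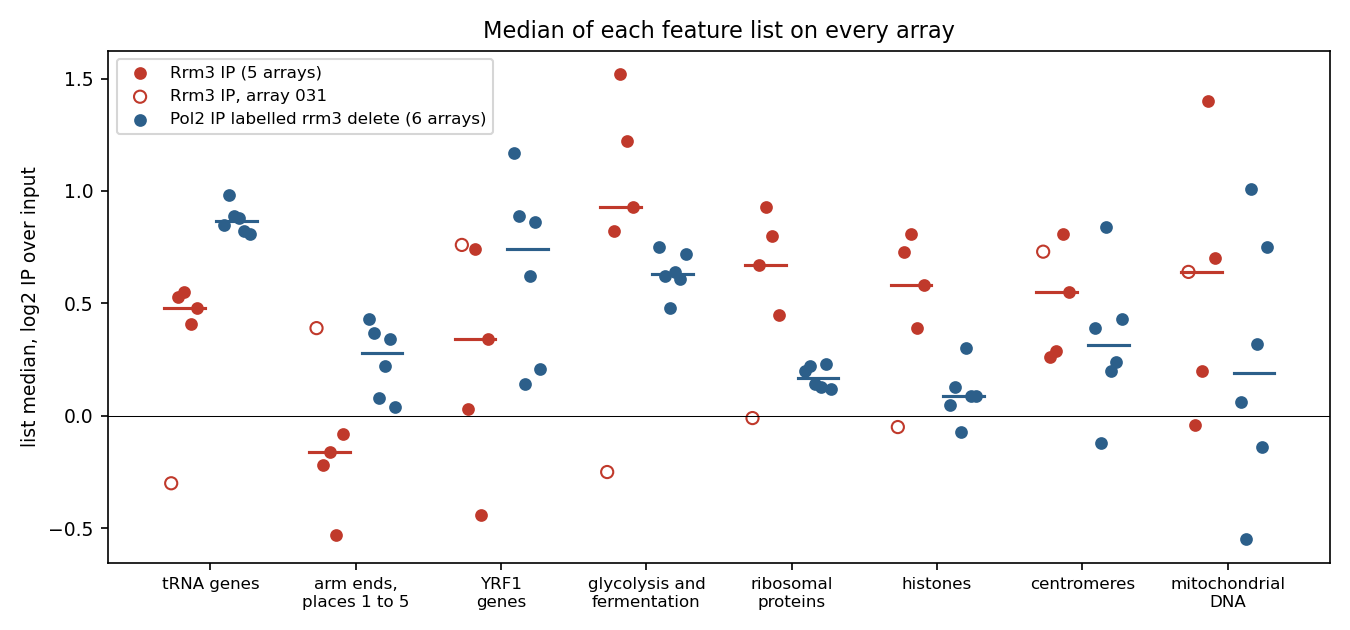
Median log2 IP over input of 8 feature lists on each array, with the 5 Rrm3 arrays (red, array 031 open) left of the 6 Pol2 arrays labelled rrm3 delete (blue); horizontal bars mark the median over arrays. For tRNA genes all Rrm3 arrays lie below all Pol2 arrays, for the arm ends all but array 031 do, and for ribosomal protein genes all but array 031 lie above.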

How the data were processed

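The authors' deposited log2 ratios (IP over input) had been median normalised, per the series text. Per the file headers, the deposited scanner output gives an intensity per spot and channel with its local background, quality flags and notes of PCR failure, which were used for checks and alternatives. Set against that output, the deposited log2 columns equalled the mean ratio of unflagged spots of a name, turned on dye swaps (correlation of at least 0.999 in size, 99.6% or more within 0.01). The genome build and the software were not given in those sources. Array medians of the deposited columns were -0.46 (031) and -0.05 to 0.03.

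Columns were centred on their medians and fitted with limma 3.58.1 in R 4.3.3 (lmFit and eBayes, prior degrees of freedom 5.73), with group means and dye orientation as terms, on the 11 arrays. Features measured on at least 3 arrays of each group were tested, two-sided. Of 6203 ORF names, 5677 matched the R64 table, used for symbols and gene order only. No columns were identical. Array 231, whose labels contradict each other, entered no comparison. The labels give no number, culture, day or extract shared by arrays of both groups, so no pairing was used, and arrays 182 to 185 were tried as a block. The fit was tested on simulated data. The number of arrays limits precision.

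Named features were the 10 largest differences either way among called features whose groups did not overlap, measured on at least 4 Rrm3 and 5 Pol2 arrays, the 10 highest in both IPs, and called or largest members of each list. The comparison and the lists were chosen with earlier results of these data known, and so were the alternatives (source and background of the ratios, centring, spread, dye, weights, filters, arrays left out).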

Additional observations from a re-analysis of the deposited data

Results flagged for a closer look

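In 74 groups of 4 to 6 arrays, 4 held an array whose distance from its nearest neighbour exceeded Dixon's limit, and chance gives about 1 in 20. The median of the tRNA genes was -0.30 on Rrm3 array 031, against 0.41 to 0.55 on the other Rrm3 arrays. GMC2 (YLR445W) read -1.56 on array 031, against -0.62 to -0.25, and the mitochondrial Q0180 read 0.97 there, against -1.28 to -0.95. IYAL069W read -1.25 on Rrm3 array 184, against -0.30 to 0.04. Array 031 is also the array with the widest spread of values and a layout shared with array 041 alone.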

How the results depend on the processing

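Of the differences at named features, 154 of 198 kept their call when an array was left out and 44 lost it, and 227 of 278 kept it under the other alternatives and 51 lost it. Those features were chosen for large called differences without overlap in these same data, which favours keeping a call. Of all 116 features called, 42 (without array 040) to 115 (without array 031) kept their call when 1 array was left out. No paired analysis was possible because the labels give no number, culture, day or extract that arrays of both groups share.

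The counts moved more. Leaving out 1 array gave 3 to 75 features with the Rrm3 IP higher than the Pol2 IP, 39 to 244 lower, 113 to 1286 called higher in the Rrm3 IP, 447 to 1572 in the Pol2 IP and 66 to 552 in both, with a correlation of 0.39 to 0.54. The highest values came without array 031. The causes were not tested, except that fewer arrays or features were tested where these were left out.

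Without centring, 5 differences were higher, 433 features were called in the Rrm3 IP and 118 in both. With equal spread, 152 differences were higher and 385 lower, and 1931 features were called in the Pol2 IP. With equal spread and array 031 left out, chosen after seeing the data, the counts were 107 and 320, with 2105 in the Pol2 IP and 511 in both. With the IP in Cy5 alone, 1 difference was higher and 3 lower, and 28 features were called in the Rrm3 IP, 140 in the Pol2 IP and 4 in both. With the IP in Cy3 alone, the counts were 0, 0, 108, 332 and 68, with a correlation of 0.71. With arrays 182 to 185 as a block, also chosen after seeing the data, 6 differences were higher and 69 lower, with 548 features called in the Rrm3 IP, 518 in the Pol2 IP and 107 in both, and Q0185A, Q0185H, IYKL006W, YLR062C and IYOR057W were among the features that lost their call. Arrays 182 to 185 alone gave 0 for all of these in limma, 295 differences at an unadjusted p under 0.05, and a correlation of 0.68.

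The fit to all 15 grouped arrays gave 43 higher, 221 lower, 1360 in the Rrm3 IP and 376 in both. Array weights gave 33 higher, 195 lower, 333 in the Rrm3 IP and 2631 in the Pol2 IP. Features measured on all 11 arrays gave 3 higher, 60 lower, 260 in the Rrm3 IP, 424 in the Pol2 IP and 116 in both. Without arrays 031 and 041, 25 were higher, with 1376 in the Pol2 IP and 548 in both.

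Flagged spots limit array 182 most, which measured 6282 features.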
